A study of Mus musculus with 8 samples.

Results

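Alcohol and aldehyde dehydrogenases are the enzymes that carry ethanol to acetaldehyde and acetaldehyde to acetate, and several of them also oxidise retinol and retinal to retinoic acid. This account covers 10 of their genes, Adh1, Adh4, Adh5, Adh7, Aldh1a1, Aldh1a2, Aldh1a3, Aldh2, Aldh3a2 and Aldh6a1, taken as every probe that the platform annotation gives to one of these symbols. That gave 10 probes, 1 per gene, among 21582 probes on the array. Each of the 10 probes had a computable log2 ratio on all 8 arrays, so that all 80 possible values were present, against 48.6% of all probes with a value on every array, and all 10 passed the filter of a value on at least 3 arrays of each dye orientation, as did 15345 probes in all.

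The cells were neurospheres, balls of neural stem cells and their progeny that float in culture, started from mouse cortex at gestational day 12.5 in medium with Fgf, Egf and Lif. Exposed cultures had 320 mg/dl ethanol for 5 days of proliferation and were then differentiated for 3 days by removal of Egf and Lif, with no ethanol present; control cultures were differentiated in the same way and never had ethanol. Exposed and control RNA were hybridised together on 8 arrays, with exposed RNA in Cy5 on 4 (replicates 5 to 8) and in Cy3 on the other 4 (replicates 1 to 4). The labels do not name a mouse strain, and they do not say which arrays came from separate cultures, so p-values measure the spread between arrays, which may be technical. RNA was taken from whole cultures, in which fewer cells of a type and less RNA per cell cannot be told apart.

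It is not given in the sources used here whether a deposited ratio divides 1 condition by the other or 1 dye by the other, nor in which order. The labels list the exposed culture as the second channel on all 8 arrays, whichever dye it carried. They do not say how the channels entered the ratio. Every value was therefore centred on its array's median and each probe was split into a shared part, the mean of both orientations, and a turning part, the distance of the ethanol-in-Cy5 mean from that shared part. A positive turning part thus means a higher ratio where exposed RNA carried Cy5. If conditions were divided, the ethanol difference is in the shared part and the dye effect in the turning part. If dyes were divided, it is the other way round. A sign below therefore does not tell whether a transcript was more or less abundant after ethanol. Ratios carry no expression levels, so the order of these genes by abundance, and the labelled cell type itself, could be checked only by which probes gave enough ratios to be tested. Of the markers with a probe, 8 of 8 were tested for neural progenitors, 8 of 8 for astrocytes, 6 of 8 for neurons and 6 of 7 for the oligodendrocyte lineage. For cell types other than neural ones the counts were 7 of 8 for endothelial and mural cells, 4 of 7 for microglia and macrophages, 3 of 7 for meningeal fibroblasts, Aldh1a2 among them, and 3 of 4 for erythroid cells. Over the whole array, 15345 of 21582 probes were tested. The microglial and meningeal shares lay below all the neural ones, while the endothelial and erythroid shares lay within the neural range. These counts thus did not fully separate neural from other cell types, and the label stays unchecked.

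In outline, Adh4 had a large turning part that passed the test, Adh1 of the same gene cluster lay on the same sides without passing, and Aldh6a1 lay on the negative side of every array without passing. The probes of Adh5, Adh7 and Aldh1a2 hardly left the array median. Aldh1a1 and Aldh1a3 varied between arrays, and Aldh2 and Aldh3a2 stayed closer to the median, without a call.

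Adh4 encodes the class II alcohol dehydrogenase, an enzyme best known from liver that oxidises retinol as well as ethanol at high concentrations. Its centred log2 ratio was -2.12, -6.09, -4.59 and -4.01 on replicates 5, 6, 7 and 8, with exposed RNA in Cy5, and 3.96, 3.68, 4.22 and 6.42 on replicates 1, 2, 3 and 4, with exposed RNA in Cy3. All arrays with exposed RNA in Cy5 lay below 0 and all with exposed RNA in Cy3 lay above it, so the orientations did not overlap. The means were -4.20 ± 1.64 with exposed RNA in Cy5 and 4.57 ± 1.25 with exposed RNA in Cy3 (SD, n = 4 each). The turning part was -4.39 ± 0.47 (SE of the fit, 95% interval -5.44 to -3.33), which is 20.9-fold, and it passed with limma at an adjusted p of 0.000595 over all probes tested. It ranked 76 among them by p. The call ended when the arrays whose code ends in r (replicates 3, 4 and 8) were left out, with a turning part of -4.04 and an adjusted p of 0.0765 on 5 arrays, and held under 19 of 20 alternatives, with adjusted p from 0.000385 to 0.00289 in those 19. Its shared part was 0.18 ± 0.47 (adjusted p = 0.887).

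Adh1 encodes the class I enzyme, the main alcohol dehydrogenase of liver. It read -0.56, -4.77, -0.52 and -3.43 on replicates 5 to 8, with exposed RNA in Cy5, and 3.21, 1.58, 1.06 and 2.03 on replicates 1 to 4, with exposed RNA in Cy3. Again every array of the first orientation was negative and every array of the other was positive, with replicates 6 and 8 far below replicates 5 and 7. The means were -2.32 ± 2.13 with exposed RNA in Cy5 and 1.97 ± 0.92 with exposed RNA in Cy3 (SD, n = 4 each). The turning part was -2.15 ± 0.52, a 4.42-fold value with a 95% interval of -3.29 to -0.999, and did not pass (limma, unadjusted p = 0.00189, adjusted p = 0.0791; adjusted p from 0.0584 to 0.436 over 20 alternatives). The shared part was -0.17 ± 0.52 (adjusted p = 0.903).

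**Figure D1:**
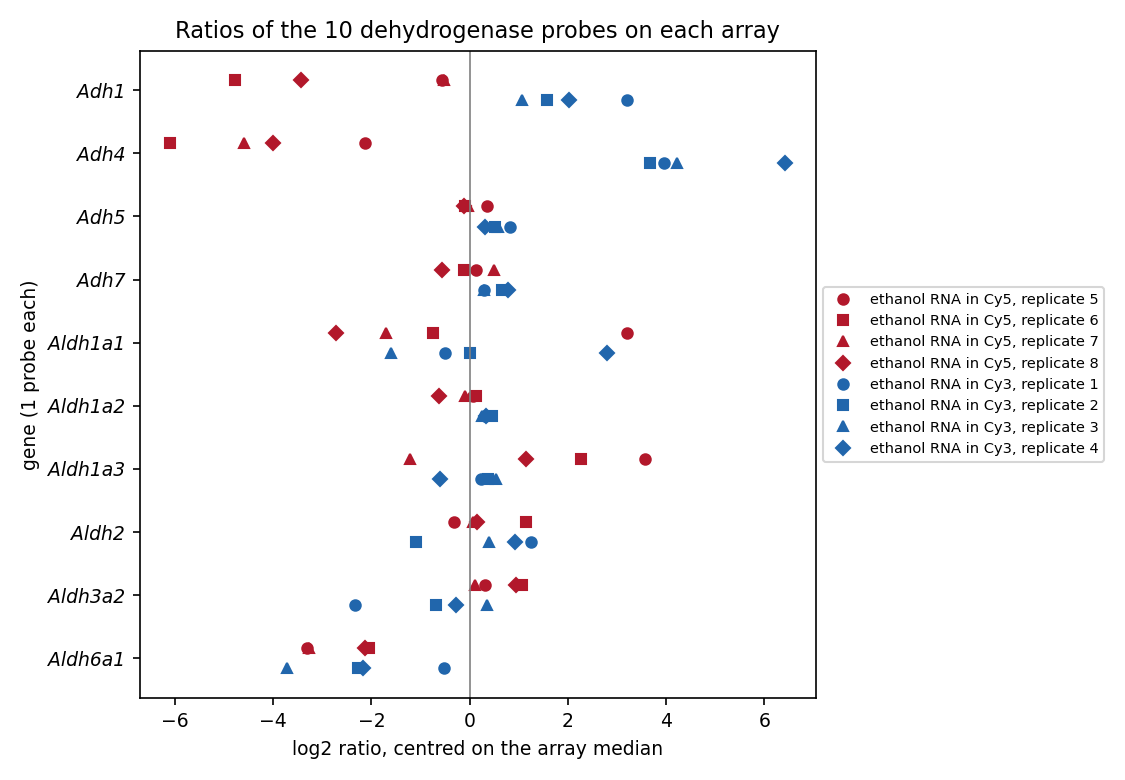
Centred log2 ratio (horizontal axis) of the 10 dehydrogenase probes (1 per row) on each of the 8 arrays, red with exposed RNA in Cy5 and blue with exposed RNA in Cy3, 1 marker shape per replicate within an orientation. Adh4 and Adh1 fall on opposite sides of 0 in the 2 orientations, Aldh6a1 is negative on all 8 arrays, and Adh5, Adh7 and Aldh1a2 stay within 0.82 of 0.

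Of the 10 members, 1 passed in the turning part after adjustment over all probes, beside 1.56% of the 15345 probes tested (239 probes, 118 positive and 121 negative; 417 probes, 312 positive and 105 negative, with the values as deposited). At an unadjusted p under 0.05 the members that passed were 2, Adh4 and Adh1, beside 13.8% of all probes. The orientations did not overlap for 3 members, Adh4, Adh1 and Aldh1a2, beside 10.9% of all probes. With the values as deposited, 3 again did not overlap, now Adh4, Adh1 and Aldh3a2, beside 14.4%. The median turning part was -0.26 over the 10 members and 0.11 over all probes tested. It was negative for 8 members, beside 43.1% of all probes, yet with the values as deposited the turning parts of Adh5, Adh7, Aldh1a2, Aldh2 and Aldh6a1 became 0.05, 0.06, 0.08, 0.27 and 0.06. The median of all probes moved to 0.42 under that setting, so all 5 stayed below it.

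The alcohol dehydrogenase genes lie side by side on mouse chromosome 3, in the order Adh7, Adh1, Adh6a, Adh6b, Adh4 and Adh5. Adh7, the class IV enzyme that is active on retinol, had a turning part of -0.26 ± 0.28. Adh1 followed at -2.15 ± 0.52. Adh6a was not analysed here, and the probe that the platform names Adh6b read -0.41 ± 0.34 on 7 arrays. Adh4 read -4.39 ± 0.47 and its neighbour Adh5 -0.27 ± 0.26. All 5 genes with a value thus had a negative turning part after centring, beside 43.1% of all probes. Those of Adh4 and Adh1 were several times the size of the others, whose 95% intervals held 0. With the values as deposited, Adh5 and Adh7 had positive turning parts, 0.05 and 0.06. The files hold no probe sequences, so hybridisation of 1 gene's transcript to another's probe was not tested.

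**Figure D2:**
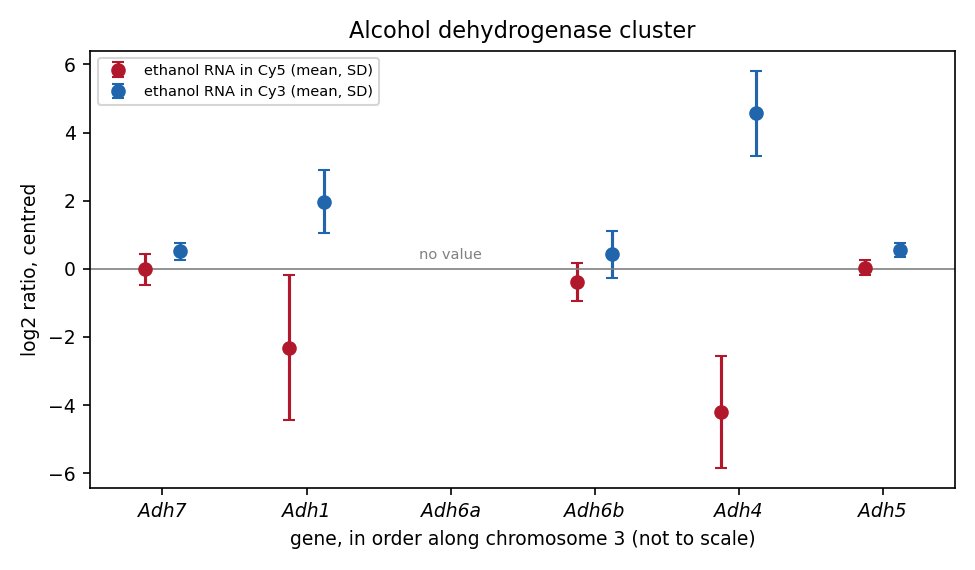
Mean centred log2 ratio with its SD (vertical axis) for the genes of the alcohol dehydrogenase cluster in their order on chromosome 3 (horizontal axis, not to scale), red with exposed RNA in Cy5 and blue with exposed RNA in Cy3. The orientations stand far apart at Adh4 (-4.20 and 4.57) and Adh1 (-2.32 and 1.97) and close together at Adh7 and Adh5.

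The promoters of Adh4 and Adh1 are shown because these are the 2 members with the largest turning parts, and that of Aldh6a1, described next, because it was the most displaced member in the shared part. They are RefSeq sequences of GRCm38.p6, 250 bases before to 50 after a transcript start, on the gene's strand. Capitals mark matches on either strand to any of 5 motifs chosen with the sequences in view. These were the TATA box spelled as TATAAA, the CCAAT box by its own letters, the GC box spelled as CCGCCC, and the E-box in the form CACGTG and in the form CAGCTG, with overlapping matches counted. Of the 10 members 8 had an entry, in 11 promoters.
Adh4 at chr3:138415247-138415546, plus strand: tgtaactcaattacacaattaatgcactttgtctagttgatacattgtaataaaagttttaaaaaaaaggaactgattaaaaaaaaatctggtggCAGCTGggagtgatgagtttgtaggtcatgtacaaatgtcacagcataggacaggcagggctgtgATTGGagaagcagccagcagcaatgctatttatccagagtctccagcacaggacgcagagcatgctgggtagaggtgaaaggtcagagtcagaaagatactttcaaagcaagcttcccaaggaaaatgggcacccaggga
Adh1 at chr3:138277335-138277634, plus strand: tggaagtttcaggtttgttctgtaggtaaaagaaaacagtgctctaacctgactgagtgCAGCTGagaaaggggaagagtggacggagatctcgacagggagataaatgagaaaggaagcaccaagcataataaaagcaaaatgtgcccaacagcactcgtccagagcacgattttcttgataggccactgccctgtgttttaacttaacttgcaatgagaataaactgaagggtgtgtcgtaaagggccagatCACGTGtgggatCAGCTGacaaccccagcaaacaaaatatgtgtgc
Aldh6a1 at chr12:84450975-84451274, minus strand, the outer of 2 listed starts: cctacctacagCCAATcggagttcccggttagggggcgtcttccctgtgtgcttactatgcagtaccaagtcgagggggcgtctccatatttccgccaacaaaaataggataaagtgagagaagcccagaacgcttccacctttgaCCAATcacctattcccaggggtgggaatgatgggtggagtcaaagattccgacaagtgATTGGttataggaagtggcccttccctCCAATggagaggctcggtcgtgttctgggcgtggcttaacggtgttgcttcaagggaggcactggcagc

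The Adh4 window held 1 CCAAT box and 1 E-box of the CAGCTG form. The Adh1 window held 2 E-boxes of that form and 1 of the other, and no CCAAT box. The form shared by Adh4 and Adh1, a kind of site that basic helix-loop-helix factors bind, occurs in 16.3% of the 32851 promoters listed, the other E-box in 7.15% and the CCAAT box in 37.4%. Of the other 8 promoter entries of members only the outer start of Adh5 held the shared form, and the turning part of Adh5 was -0.27. The window of the outer Aldh6a1 start held 4 CCAAT boxes, and that of its inner start, not printed, held 2. Neither the TATA box (13.6% of promoters) nor the GC box (35.7%) was found in the 3 windows printed. The count of CpG dinucleotides was 1 for Adh4, 6 for Adh1, and 12 and 4 for the outer and inner starts of Aldh6a1. The median was 7 over all promoters, and Aldh1a2 had 50. A match is a description of letters and not a bound site.

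Aldh6a1 encodes the mitochondrial methylmalonate semialdehyde dehydrogenase, which acts in the breakdown of valine and thymine and not on ethanol. It read -3.32, -2.04, -3.26 and -2.13 on replicates 5 to 8, with exposed RNA in Cy5, and -0.52, -2.27, -3.71 and -2.17 on replicates 1 to 4, with exposed RNA in Cy3. All 8 arrays were negative, replicate 1 by the least, and the orientations overlapped. It was the only member with 1 sign on every array, as were 3.57% of all probes tested. The means were -2.69 ± 0.70 with exposed RNA in Cy5 and -2.17 ± 1.31 with exposed RNA in Cy3 (SD, n = 4 each). The shared part was -2.42 ± 0.38, a 5.37-fold value with a 95% interval of -3.28 to -1.57 that ranked 7 among all probes by p. It did not pass (limma, unadjusted p = 8.2e-05, adjusted p = 0.136), nor under any of 20 alternatives, with adjusted p from 0.0608 to 0.405. Its turning part was -0.26 ± 0.38 (adjusted p = 0.815).

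No member passed in the shared part, and 0% of all probes did (limma, 0 of 15345; 2132 with an unadjusted p under 0.05). Aldh6a1 was the only one of the 10 with an unadjusted p under 0.05, beside 13.9% of all probes. The median shared part was 0.14 over the members and -0.06 over all probes tested, with 6 members positive and 4 negative (53.9% of all probes were negative). Of the 8 marker lists, astrocyte markers had the lowest median shared part, -0.84, with 7 of 8 tested negative. Neural progenitor markers had the highest, 0.69, with 6 of 8 positive. Neuronal and oligodendrocyte lineage markers were each 3 positive and 3 negative, with medians of 0.19 and 0.06. Medians of the remaining lists ran from -0.19 for microglia and macrophages to 0.31 for erythroid cells. The neuronal gene Dcx had the smallest p of the markers in this part, at -1.88 ± 0.455 (limma, adjusted p = 0.18). In the turning part, where Adh4 was called, the 8 marker lists had medians from -0.17 for astrocytes to 0.63 for microglia and macrophages. The 4 tested microglial markers, of 7 with a probe, were all positive, as were the 3 of erythroid cells (median 0.35). Over all probes, 43.1% had a negative turning part. The 4 markers with the smallest p in that part were Pax6, C1qa, Cdh5 and S100b. The progenitor gene Pax6 read 3.82 ± 0.84 (limma, adjusted p = 0.0572) and the microglial complement gene C1qa 1.39 ± 0.39 (adjusted p = 0.124). The endothelial cadherin gene Cdh5 read -1.51 ± 0.40 on 6 arrays (adjusted p = 0.128) and the astrocyte gene S100b 1.25 ± 0.36 (adjusted p = 0.139). Pax6, S100b and Cdh5 went against most of their lists. Of the progenitor markers 6 of 8 were negative and of the astrocyte markers 5 of 8, while 4 of 7 endothelial and mural markers were positive. No marker passed in either part, and the part of cell composition in the members' values was not tested.

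**Figure D3:**
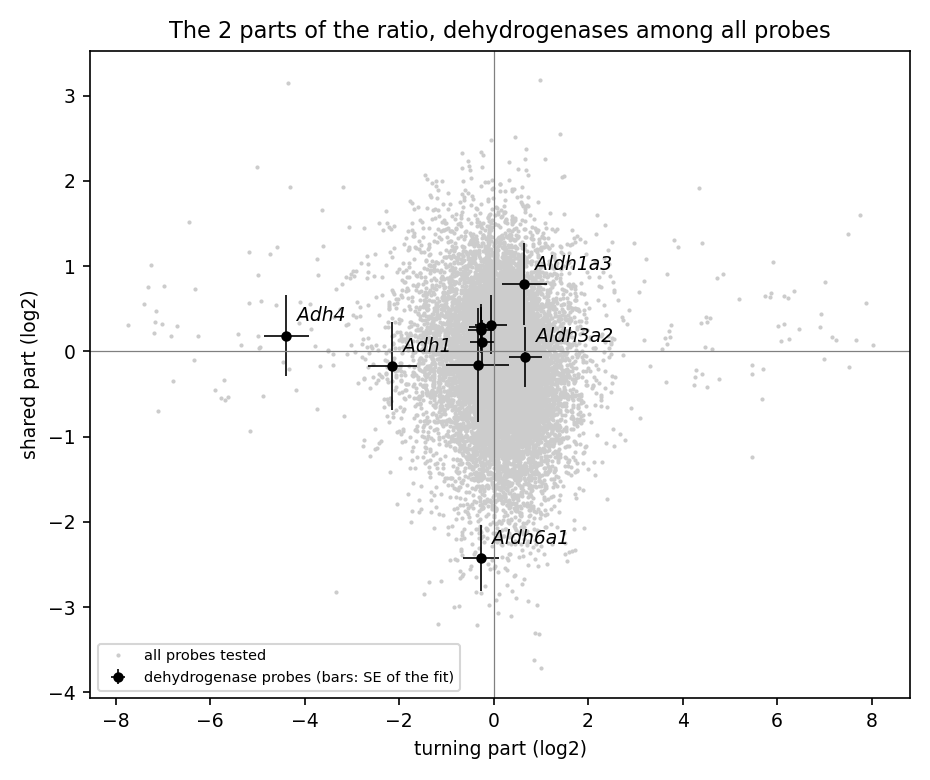
Turning part (horizontal axis) against shared part (vertical axis), both log2, for the 10 dehydrogenase probes in black with SE bars and all 15345 probes tested in grey. Adh4 (-4.39) and Adh1 (-2.15) lie to the left and Aldh6a1 (-2.42) at the bottom, while the other 7 lie within the bulk of the probes.

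The retinal dehydrogenases make retinoic acid, a signal that patterns the embryonic brain and promotes neuronal differentiation. Aldh1a1 read 3.21, -0.75, -1.71 and -2.71 on replicates 5 to 8 and -0.50, 0.01, -1.60 and 2.79 on replicates 1 to 4, so that replicates 5 and 4, 1 of each orientation, stood high among low or negative arrays. Its spread between arrays of 1 orientation was 2.26 (residual SD), larger than that of 92.3% of the probes tested, and its shared and turning parts were -0.16 ± 0.67 and -0.33 ± 0.67 (adjusted p = 0.935 and 0.875). The shared part was -0.77 without replicate 5, -0.59 without replicate 4 and 0.21 without replicate 8, so that its sign rested on single arrays.

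Aldh1a3, the retinal dehydrogenase of the ventral forebrain and lateral ganglionic eminence, read 3.58, 2.26, -1.21 and 1.14 on replicates 5 to 8 and 0.24, 0.37, 0.53 and -0.60 on replicates 1 to 4. The 3 highest values all came from arrays with exposed RNA in Cy5, which also held the lowest. It had the highest shared part of the members, 0.79 ± 0.48 (95% interval -0.28 to 1.85, adjusted p = 0.481), and a turning part of 0.65 ± 0.48 (adjusted p = 0.606). Aldh1a2, the main enzyme of the meninges around the cortex, read 0.06, 0.13, -0.10 and -0.62 on replicates 5 to 8 and 0.32, 0.45, 0.26 and 0.33 on replicates 1 to 4. As deposited, before centring, it stayed within 0.376 of 0 on all 8 arrays, which only 5 of the 15345 probes tested did, Aldh1a2 included. Its shared part was 0.10 ± 0.27 (95% interval -0.49 to 0.69) and its turning part -0.23 ± 0.27 (-0.82 to 0.36). Its orientations did not overlap after centring and overlapped in the deposited values.

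Aldh2 encodes the mitochondrial enzyme that clears most acetaldehyde formed from ethanol. It read -0.32, 1.14, 0.07 and 0.15 on replicates 5 to 8, with exposed RNA in Cy5, and 1.25, -1.10, 0.40 and 0.93 on replicates 1 to 4, with exposed RNA in Cy3. Replicate 2 was the only array clearly below the median, and the orientations overlapped. The shared part was 0.31 ± 0.35 with a 95% interval of -0.46 to 1.09 (adjusted p = 0.713), and the turning part -0.05 ± 0.35 with one of -0.82 to 0.72 (adjusted p = 0.968). Both intervals held 0, and a difference of either kind within them is compatible with these 8 arrays.

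Aldh3a2, the fatty aldehyde dehydrogenase of the endoplasmic reticulum, read 0.31, 1.06, 0.11 and 0.94 on replicates 5 to 8 and -2.34, -0.69, 0.36 and -0.27 on replicates 1 to 4. All 4 arrays with exposed RNA in Cy5 were positive and 3 of 4 with exposed RNA in Cy3 negative, the opposite way round from Adh4 and Adh1. Its turning part was 0.67 ± 0.35 (95% interval -0.11 to 1.45; limma, unadjusted p = 0.0853, adjusted p = 0.446) and its shared part -0.06 ± 0.35.

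Adh5 encodes the class III enzyme, which is present in most tissues and clears formaldehyde and S-nitrosoglutathione. It read 0.36, -0.10, -0.04 and -0.11 on replicates 5 to 8 and 0.82, 0.52, 0.57 and 0.31 on replicates 1 to 4, a narrow range in which the orientations overlapped only through replicates 5 and 4. Its residual SD was 0.22, and 0.352% of the probes tested had a smaller one. Adh7 read 0.13, -0.11, 0.50 and -0.57 on replicates 5 to 8 and 0.30, 0.67, 0.30 and 0.78 on replicates 1 to 4, with a residual SD of 0.36. The shared parts of Adh5 and Adh7 were 0.29 ± 0.26 and 0.25 ± 0.28, and their 95% intervals, -0.29 to 0.88 and -0.36 to 0.86, held 0. Over all probes tested the median residual SD was 1.25. Adh5, Aldh1a2, Adh7, Aldh2, Aldh3a2 and Aldh6a1 lay below it, and Adh4, Aldh1a3, Adh1 and Aldh1a1 above it.

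**Figure D4:**
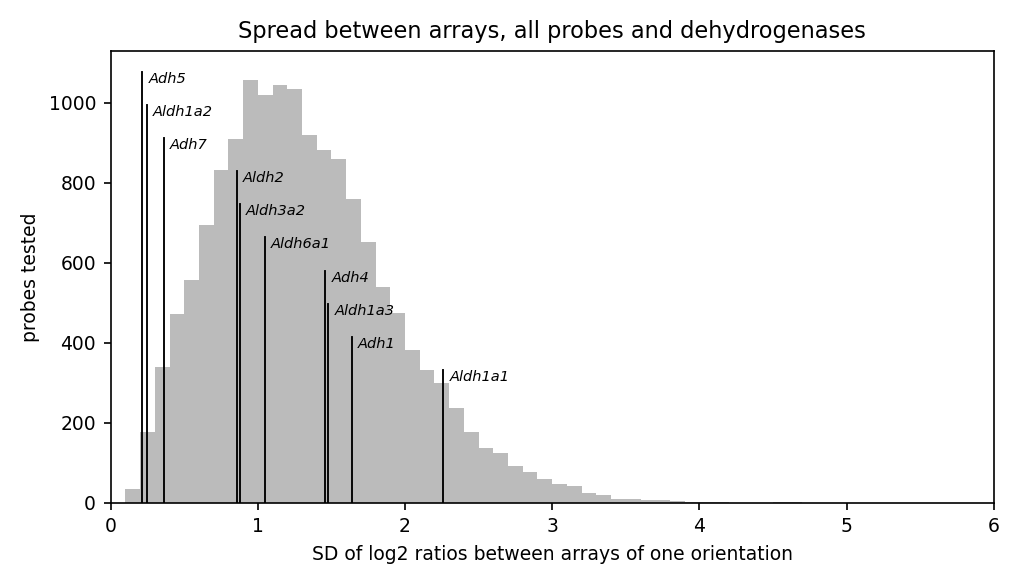
Number of probes tested (vertical axis) by residual SD, the spread of log2 ratios between arrays of one orientation (horizontal axis), with the 10 dehydrogenases as vertical lines whose heights only separate the names. Adh5 (0.22), Aldh1a2 (0.25) and Adh7 (0.36) sit at the low edge and Aldh1a1 (2.26) in the upper tail.

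The rest of the pathway showed no call in either part. Of 14 other aldehyde dehydrogenases listed, 10 were tested, with a median shared part of 0.14 and a median turning part of 0.17, near those of all probes (-0.06 and 0.11). Aldh8a1, also active on retinal, had the smallest p in the shared part at -1.50 ± 0.43 (adjusted p = 0.228), and its values were negative on all 7 arrays that had one. Aldh1a7, a rodent relative of Aldh1a1, was next at 0.47 ± 0.28. In the turning part Aldh9a1 read -0.62 ± 0.36 and Aldh7a1 0.70 ± 0.40, neither passing.

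Other alcohol, retinol and aldo-keto oxidoreductases gave 10 tested genes of 23 listed, 5 positive and 5 negative in the shared part. The 11-cis retinol dehydrogenase gene Rdh5 read -1.58 ± 0.52 (adjusted p = 0.25) and the aldo-keto reductase gene Akr1b8 0.43 ± 0.30. In the turning part Akr1a1, the aldehyde reductase gene, read 1.53 ± 0.74 (adjusted p = 0.401), with replicate 7 at 7.04 while replicates 5, 6 and 8 lay between -0.18 and 1.17, and Akr7a5 read -0.35 ± 0.27. All 4 genes of the other ethanol and acetate routes were negative in the shared part, beside 53.9% of all probes. The ethanol-oxidising cytochrome Cyp2e1 read -0.52 ± 0.35 and catalase (Cat) -0.25 ± 0.27. The acetyl-CoA synthetases Acss1 and Acss2 read -0.60 ± 0.35 and -0.19 ± 0.33. None of the 4 passed (limma, adjusted p from 0.465 to 0.818). Their largest turning parts were 0.49 ± 0.33 for Acss2 and -0.32 ± 0.35 for Acss1.

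Genes downstream of retinoic acid were tested for 4 of 11 listed. All 4 were negative in the shared part, with a median of -1.06, beside 53.9% of all probes. Tgm2 was so by the least, at -0.21 ± 0.34. Cyp26a1, which degrades retinoic acid and is induced by it, read -1.34 ± 0.49 (adjusted p = 0.278). Stra6, the retinol transporter gene, read -1.22 ± 0.38 (adjusted p = 0.232). In the turning part the receptor gene Rarb read 1.24 ± 0.43 (adjusted p = 0.222) and the transglutaminase gene Tgm2 -0.84 ± 0.34 (adjusted p = 0.313). None of the 4 passed in either part.

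Breakdown of branched-chain amino acids and propionate, the pathway of Aldh6a1, had 13 tested genes of 22 listed, 9 positive and 4 negative in the shared part, with a median of 0.29. Acadsb, the short/branched-chain acyl-CoA dehydrogenase of isoleucine breakdown, had the smallest p of them. It read -1.80, -4.04, -2.64 and -3.89 on replicates 5 to 8 and -4.96, -1.29 and -1.49 on replicates 2 to 4, with no value on replicate 1. It was thus negative on each of the 7 arrays, with a shared part of -2.84 ± 0.53 that did not pass (limma, unadjusted p = 0.000417, adjusted p = 0.140). Acad8, the isobutyryl-CoA dehydrogenase that acts before Aldh6a1 in valine breakdown and is named here after its values were seen, had a shared part of 0.88 ± 0.45 (adjusted p = 0.406). The kinase gene Bckdk, whose product switches off the branched-chain keto acid dehydrogenase, was likewise positive at 0.81 ± 0.33 (limma, adjusted p = 0.317). Dbt lay on the negative side, with a shared part of -0.73 ± 0.30 (limma, adjusted p = 0.329). In the turning part Dbt and Bckdhb, subunits of that dehydrogenase, read 0.78 ± 0.30 and 0.62 ± 0.37, neither passing.

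**Figure D5:**
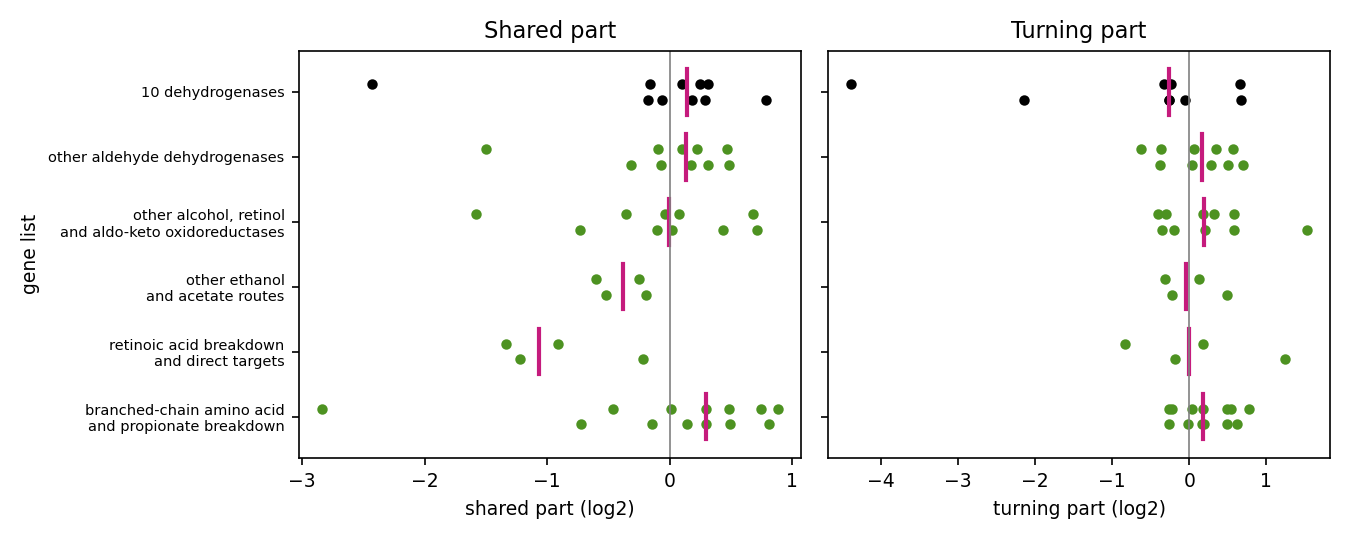
Shared part (left panel) and turning part (right panel), both log2 on the horizontal axis, of each tested gene in the 10 dehydrogenases (black) and in 5 lists of related genes (green), with the list's median as a bar. Aldh6a1 at -2.42 and Acadsb at -2.84 stand apart in the shared part, and Adh4 at -4.39 and Adh1 at -2.15 in the turning part.

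The probes whose values were most like those of Adh4 over the 8 arrays, among 8679 named probes of other genes with a value on every array, were Sst at Pearson r = 0.984, Ppp1r2-ps7 at 0.981 and Apoc1 at 0.980. These are descriptions with no test, and they rest on the difference between orientations: the Sst probe read -1.32, -2.45, -2.88 and -2.96 on replicates 5 to 8 and 2.03, 1.54, 1.95 and 3.26 on replicates 1 to 4. For Aldh6a1 they were Nbl1 at 0.958, Bpnt1 at 0.952 and Sgpl1 at 0.942, which followed its ups and downs and not its level. Nbl1 read -1.51, 0.69, -1.74 and -0.26 on replicates 5 to 8 and 3.20, -0.82, -1.86 and 0.71 on replicates 1 to 4.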

How the data were processed

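The authors deposited log2 ratios, a value for each probe on each array. Intensities were not used here, and how the arrays were scanned, background-corrected and normalized is not given in the sources used here. Exact 0 and each array's highest value were treated as missing. The highest value was assumed to be the log2 of 100000 plus a constant of the array, and the constant was computed from that assumption. Between 75.4% and 87.1% of the 21582 probes were computable per array. Deposited array medians were 0.313, 0.229, 0.023 and 0.516 on replicates 5 to 8, with exposed RNA in Cy5. On replicates 1 to 4, with exposed RNA in Cy3, they were -0.375, -0.435, -0.324 and -0.331. Each array was centred on its median, which also removed this offset between the orientations. The cause of the offset was not tested. Probes were kept when 3 or more arrays of both orientations gave a value, and were fitted on all 8 arrays with limma 3.58.1 (lmFit, eBayes, R 4.3.3), with Benjamini-Hochberg adjustment over all 15345 probes tested and a threshold of 0.05; the fit was tested on simulated data. The number of arrays limits the precision.

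Gene names came from the platform annotation of an older date: 16635 had 1 symbol, 113 several and 4834 none. Symbols were updated by Entrez number through a GRCm38.p6 table (15957 matched). A listed gene was represented by its probe with most values. The members and the lists (aldehyde dehydrogenases, alcohol, retinol and aldo-keto oxidoreductases, ethanol and acetate routes, retinoic acid breakdown and targets, branched-chain amino acid breakdown, and 8 cell type marker lists) were chosen with earlier results of these data known. Named from each list were genes passing over all probes and the 2 with the smallest p in each part. Likeness was given for members that passed and for the one with the smallest p in the shared part. Alternatives covered centring, scaling, quantile normalization, filters, missing values, robust and weighted fits, a block on the array code's number, and leaving out arrays.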

Additional observations from a re-analysis of the deposited data

Results flagged for a closer look

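The ratio of Adh4 differed between the dye orientations, with a turning part of -4.39 on the log2 scale that passed over all probes tested. The part of dye, array set and ethanol in it cannot be told apart from these files.

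On replicate 5 the Adh5 probe read 0.36, apart from the other arrays with exposed RNA in Cy5, which read between -0.11 and -0.04. This was 1 of 20 groups of 4 arrays examined, and chance flags about 1 in 20.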

How the results depend on the processing

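Members that passed in the turning part numbered 1, Adh4, under 19 of 20 alternatives and 0 without the r arrays (at least 2 values per orientation). Over all probes, 239 passed in the turning part, 417 with the values as deposited, 73 without the r arrays, and 152 to 214 without single arrays (156 without replicate 4 and 152 without replicate 8). In the shared part 0 passed, and 1 when each array's highest value was kept. Leaving out the r arrays removed 3 arrays and loosened the filter together; the loosened filter alone gave 194 probes in the turning part. The causes were not tested. Uncalled members changed sign as follows. As deposited, turning parts were 0.053 for Adh5, 0.056 for Adh7, 0.083 for Aldh1a2, 0.265 for Aldh2 and 0.058 for Aldh6a1. With exact 0 kept, Aldh1a2 read 0.009 and Aldh2 0.19. Without the r arrays, shared parts were 0.22 for Adh1, -0.22 for Adh4 and 0.005 for Aldh1a1, and turning parts 0.25 for Aldh1a1 and 0.11 for Aldh2. Aldh1a1's shared part was 0.018 with array weights, and Aldh3a2's 0.00 after quantile normalization. Without single arrays, shared parts ran from -0.47 to 0.23 for Adh1, -0.16 to 0.50 for Adh4, -0.77 to 0.21 for Aldh1a1 and -0.25 to 0.20 for Aldh3a2, and turning parts from -0.95 to 0.10 for Aldh1a1, -0.30 to 0.093 for Aldh2 and -0.52 to 0.014 for Aldh6a1. Adh4's turning part ran from -4.73 to -4.07 there.

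With the number in the array code as a replicate block, 243 probes passed in the turning part. Adh4 read -4.38 under that setting (limma, adjusted p = 0.000585). Deviations of arrays with the same code number correlated at 0.014, -0.016 and 0.044. These correlations cannot tell whether such arrays shared a culture, which the labels do not say. The median turning part of branched-chain breakdown genes was 0.49 as deposited against 0.17 after centring. The median over all probes tested moved in the same way, from 0.11 to 0.42, so the move was not particular to this list. All other list medians moved by less than the spread between arrays.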
